A study of Mus musculus with 23 samples.

Results

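The nuclear pore complex is the channel through which proteins and RNA pass between nucleus and cytoplasm. It is built from a set of proteins called nucleoporins, arranged as scaffold rings (the Y complex and the inner ring), anchors in the nuclear membrane, a central channel lined by phenylalanine-glycine (FG) repeats, filaments on the cytoplasmic side and a basket on the nuclear side. Transport receptors (importins and exportins) carry cargo through the FG mesh under control of the GTPase Ran, and mRNA leaves with the export receptor Nxf1. Here the genes of 27 nucleoporins, out of 35976 genes in the deposited count table, were followed in microglia, the resident macrophages of the brain. Members were taken by name: symbols made of Nup and a number, plus Tpr, Ranbp2, Pom121, Aaas, Ndc1, Seh1l, Sec13 and Rae1. All 27 were measured well enough to be tested. Nupl1 and Nupl2, the symbols under which the table holds Nup58 and Nup42, fell outside that naming.

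RNA was sequenced from striatal microglia of male C57BL/6J mice, 9 weeks old per the treatment protocol, that pressed levers for intravenous infusions in daily 2 hr sessions over 15 days. The Saline group (8 libraries) received saline and the Maintenance group (8 libraries) methamphetamine at 0.05 mg/kg per infusion, and both were collected right after the last session. The Abstinence group (7 libraries) took methamphetamine in the same way and was collected after 21 further days in the home cage, and no saline group of that later age was among the 23 libraries. The labels do not say that each library came from its own animal, so p-values measure the spread between these samples. Totals ran from 55 to 94.8 M counts per library (median 75.4 M). Levels are CPM, the usual counts per unit of library size, with library sizes scaled by TMM (trimmed mean of M-values). The microglial gene Tmem119 had median CPM of 4290 in Saline, 3830 in Maintenance and 3760 in Abstinence, and none of the 12 microglial markers was at 0 in every library of a group. Maintenance 6 and 7 had the fewest genes with counts (12459 and 12740 of 35976, against up to 17034), and in Maintenance 8 the 10 choroid plexus and ependymal markers summed to 75600 CPM, against a group median of 237 CPM. Oligodendrocyte markers averaged 5.69 ± 0.85 log2 CPM in Saline, 6.41 ± 0.71 in Maintenance and 6.56 ± 0.45 in Abstinence (SD over 8, 8 and 7 libraries). Neutrophil markers averaged 1.76 ± 1.83, -0.87 ± 1.08 and -1.16 ± 0.80 log2 CPM in the same order, with 0, 2 and 4 of 13 markers at 0 in every library of the group. In bulk RNA, fewer cells of a type and less RNA per cell cannot be told apart.

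The set was proposed with one result in view, the higher level of Tpr in Maintenance than in Saline. Values of that comparison are therefore given as a description, without p-values. Where a gene is said to pass or not to pass the threshold there, that only describes the values that led to the choice, and nothing is drawn from it. The other comparisons reuse the Saline or the Maintenance libraries.

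The result that follows concerns Tpr, a gene of the basket, the fibrous cage on the nuclear face of the pore. Tpr is the long coiled-coil protein that forms the filaments of the basket. Nup153 anchors Tpr to the pore, and Nup50 binds Nup153 and helps release import cargo. The 250 bases before the start of each gene (RefSeq, GRCm38.p6) were searched because Tpr differed between groups while its partners did not pass the test. Not passing does not show that the partners behaved differently from Tpr. The stretches that hold the matches are shown 5′ to 3′ on the gene's strand. For Nup153 and Nup50 this is the part of the window outside every exon of GENCODE vM21. Of the Tpr window, 234 of 250 bases lie in exons, those of its neighbour Odr4 on the opposite strand included, and the 25 bases around the match are given. Capitals mark matches on either strand to 8 motifs named after them, and overlapping matches run together.
Tpr, chr1:150392720-150392744, plus strand: acgtccacagCCAATgatctcatca
Nup153, chr13:46727941-46728099, minus strand: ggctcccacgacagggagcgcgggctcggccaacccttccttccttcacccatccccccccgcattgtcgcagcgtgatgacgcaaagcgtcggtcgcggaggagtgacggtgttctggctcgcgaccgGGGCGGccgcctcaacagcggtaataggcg
Nup50, chr15:84923178-84923410, plus strand: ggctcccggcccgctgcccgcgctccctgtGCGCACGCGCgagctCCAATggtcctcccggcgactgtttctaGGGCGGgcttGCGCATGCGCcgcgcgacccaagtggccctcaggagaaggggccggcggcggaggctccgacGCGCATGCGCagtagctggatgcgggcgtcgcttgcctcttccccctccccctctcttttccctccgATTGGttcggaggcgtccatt

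The motifs, chosen with the expression values known, were the heat shock element cores GAANNTTC and TTCNNGAA, the GC box GGGCGG, the CCAAT box CCAAT, the NRF1-like pair of GCGC with 2 free bases between them, the E-box CACGTG, the CRE core TGACGTCA and the ETS core CCGGAAG. The Tpr window held 1 match, to CCAAT. The Nup153 window held 2 GC boxes, of which 1 is in the stretch shown, and the Nup50 window held 1 GC box, 2 CCAAT boxes and 3 NRF1-like matches. GC content was 55.2% for Tpr, 73.2% for Nup153 and 69.6% for Nup50. A promoter was matched for 23 of the 27 members. Among these, GGGCGG occurred in 14 (60.9%), against 32.9% of 27025 promoters of all genes and 54.9% of the 11881 promoters of tested genes. CCGGAAG occurred in 6 (26.1%, against 7.05% and 12.4%), CACGTG in 4 (17.4%, against 6.05% and 8.09%), the NRF1-like motif in 3 (13%, against 5.09% and 9.67%) and TGACGTCA in 2 (8.7%, against 1.62% and 2.68%). CCAAT occurred in 9 (39.1%, against 34.5% and 35.8%). GAANNTTC was found in the window of Aaas only (4.35% of members, 6.78% and 5.11% of the promoters) and TTCNNGAA in none (against 7.1% and 5.91%). A match is a description of the letters in these windows.

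Tpr (chromosome 1, 150392802 to 150449935, GRCm38.p6) measured 48.5 to 64.2 CPM in the 8 Saline libraries (median 57.3), 64.4 to 106 CPM in the 8 Maintenance libraries (median 82.5) and 41.6 to 55 CPM in the 7 Abstinence libraries (median 49.4). Every Maintenance library thus lay above every Saline and every Abstinence library. The highest Saline library (replicate 1, 64.2 CPM) and the lowest Maintenance library (replicate 7, 64.4 CPM) nearly met, however. Among all genes tested, Maintenance lay above Saline without overlap for 0.167%, and Abstinence below Maintenance for 0.198%. Means were 57.1 ± 5.87, 83.5 ± 12.8 and 48.7 ± 4.62 CPM (SD, n = 8, 8 and 7). Against Saline, Maintenance differed by a log2 fold change of 0.55 ± 0.09 (SE), which is given as the value that led to the choice of the set. From Maintenance to Abstinence, Tpr fell by 0.78 ± 0.10 on the log2 scale (edgeR quasi-likelihood test, Benjamini-Hochberg adjusted p = 3.1e-05), with 7 of 7 Abstinence libraries below the Maintenance median. This test reuses the Maintenance libraries in which Tpr was first seen to be high. The call held in all 9 alternative analyses (adjusted p from 5.74e-13 to 0.00184) and without each library in turn (1.14e-05 to 0.000167). These runs share that reuse of the Maintenance libraries, so their agreement adds no independent support. Against Saline, Abstinence gave -0.23 ± 0.10 (adjusted p = 0.945, unadjusted p = 0.0229), and 7 of 7 Abstinence libraries lay below the Saline median, with 5 of them inside the Saline range.

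With the mean oligodendrocyte and neutrophil markers as covariates, the log2 difference of Tpr between Maintenance and Saline was 0.58 ± 0.13 and no longer passed the threshold, while that between Abstinence and Maintenance was -0.78 ± 0.10 (adjusted p = 0.000103). These covariates were close in Maintenance and Abstinence, so that this fit could move the latter value little. Neuronal markers averaged -0.39 ± 1.58 log2 CPM in Maintenance and 1.4 ± 0.6 in Abstinence, and monocyte markers 0.46 ± 0.94 and 1.43 ± 0.94 (SD over 8 and 7 libraries). None of the 12 neuronal and 8 monocyte markers was at 0 in every library of either group. Their summed levels were 30 to 378 against 39.5 to 123 CPM for neuronal and 31.7 to 106 against 24.8 to 98.1 CPM for monocyte markers. Single Maintenance libraries held 0 to 7 neuronal markers at 0, most of them in Maintenance 5, 6 and 7 (5, 7 and 5), and Abstinence libraries 0 or 1. For monocyte markers these counts were 0 to 3 and 0 to 2. The mean log2 levels therefore partly reflect markers at 0. Their part in the Tpr values was not tested. Without Maintenance 6, 7 and 8 the values were 0.59 ± 0.10 and -0.83 ± 0.10 (adjusted p = 3.23e-05 for the latter). Odr4 overlaps the start of Tpr and Prg4 its end. Prg4 was too low to be tested and no row of the table was matched to Odr4.

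The other basket genes did not pass in any comparison. Nup153 (chromosome 13, 46679902 to 46727849) ranged from 12.3 to 27.3 CPM in Saline (median 19.2), from 1.83 to 30.1 CPM in Maintenance (median 20.1) and from 12.3 to 25.6 CPM in Abstinence (median 19.6). Its groups overlapped throughout, and the single low value was Maintenance 6. Nup50 (chromosome 15, 84923428 to 84942963) ranged from 36.2 to 45.7 CPM in Saline (median 40.1), from 38.3 to 69.9 CPM in Maintenance (median 44.4) and from 38.2 to 51.4 CPM in Abstinence (median 42.1). Here Maintenance 6 was the highest library, and the groups overlapped as well. From Maintenance to Abstinence the log2 fold changes were -0.07 ± 0.31 for Nup153 (adjusted p = 0.98) and -0.08 ± 0.11 for Nup50 (adjusted p = 0.914). In Maintenance against Saline Nup153 was at 0.11 ± 0.30. With that SE, a change of the size seen for Tpr there (0.55) was not excluded for Nup153.

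The level of Tpr relative to each partner was computed per library, after the values were seen. The log2 ratio of Tpr to Nup50 averaged 0.49 ± 0.22 over Saline, 0.85 ± 0.38 in Maintenance and 0.14 ± 0.21 in Abstinence (SD). The log2 ratio of Tpr to Nup153 averaged 1.61 ± 0.34 over Saline, 2.31 ± 1.33 in Maintenance and 1.33 ± 0.41 in Abstinence. Since the high Maintenance values of Tpr led to the choice, the differences of Abstinence from Maintenance are a description with no test. They were -0.71 for Nup50 and -0.98 for Nup153, and the latter rested in large part on Maintenance 6, whose ratio to Nup153 was 5.46. Without that library, an alternative chosen after seeing the data, the Maintenance mean was 1.86 ± 0.40 (SD, n = 7) and the difference -0.53 for Nup153, and the difference was -0.80 for Nup50. The Saline libraries also entered the choice, so the differences of Abstinence from Saline are likewise a description with no test. Against Saline, the ratio to Nup50 was lower in Abstinence by 0.34. The ratio to Nup153 differed by -0.27 in the same comparison.

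**Figure D1:**
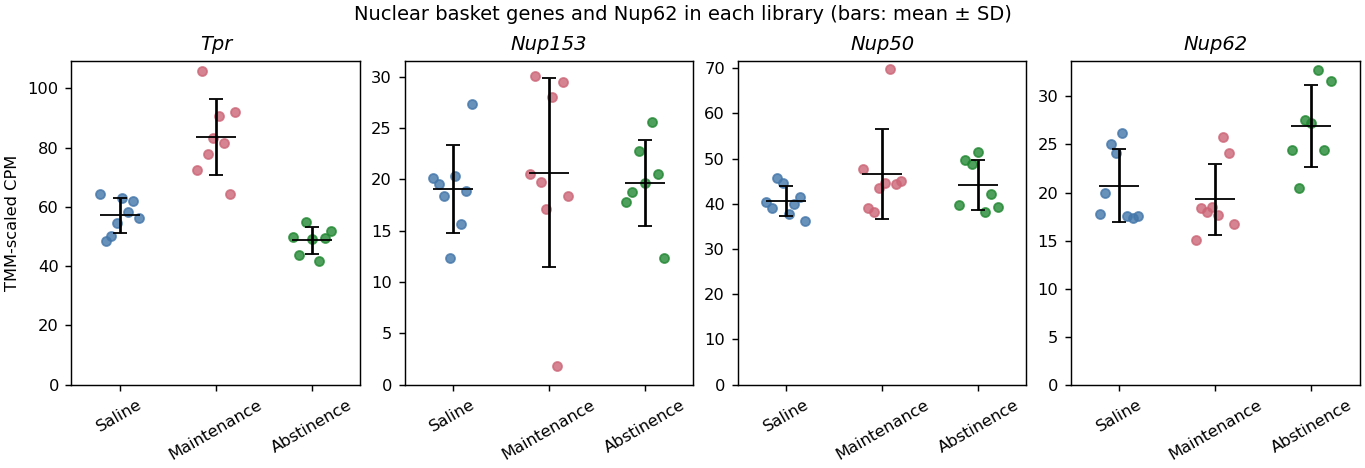
Level of 3 nuclear basket genes and of Nup62 in each library, as TMM-scaled CPM on axes that start at 0. Points are libraries (8 Saline, 8 Maintenance, 7 Abstinence) and bars are the mean ± SD. All Maintenance libraries lie above the other groups for Tpr (64.4 to 106 CPM), while the groups overlap for Nup153, Nup50 and Nup62.

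Across the whole set, 1 of 27 members passed in Maintenance against Saline, against 0.707% of the 16121 genes tested (0.335% higher and 0.372% lower), and the member was Tpr. Since this contrast led to the set, nothing is read from that count. Of the 27 members 15 were higher, with a median log2 fold change of 0.02 and a range from -0.90 (Nup210) to 0.55 (Tpr), beside a median of 0.01 over all genes. In Abstinence against Saline 0 members passed by edgeR and 0 by DESeq2, with 0.0186% of all genes called by edgeR (0.0124% higher and 0.0062% lower). The groups overlapped for all 27 members, while 0.0496% of all genes had groups that did not overlap on the higher and 0.149% on the lower side. At an unadjusted p under 0.05 there were 4 members (14.8%), against 4.39% of all genes: Nup62 was higher and Tpr, Seh1l and Nup214 were lower. The median was 0.04, with 18 of 27 higher, beside 0.01 over all genes. In Abstinence against Maintenance 1 of 27 passed, again Tpr, against 0.949% of all genes (0.552% lower and 0.397% higher). This contrast reuses the Maintenance libraries whose Tpr values led to the set. Nothing is therefore read from this count, nor from the part of Tpr in the counts that follow. Only Tpr had groups that did not overlap in that comparison, as did 0.198% of all genes on the lower side. An unadjusted p under 0.05 was reached by 5 members (18.5%, against 11% of all genes), Tpr and Nup88 lower and Rae1, Nup62 and Nup93 higher. The median was 0.02, with 14 of 27 higher, beside 0.01 over all genes. By edgeR on all 23 libraries no pore gene other than Tpr was called in Abstinence against Saline or against Maintenance. Nup62 passed against Maintenance with DESeq2 and in some subsets of the libraries, as given with its values.

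**Figure D2:**
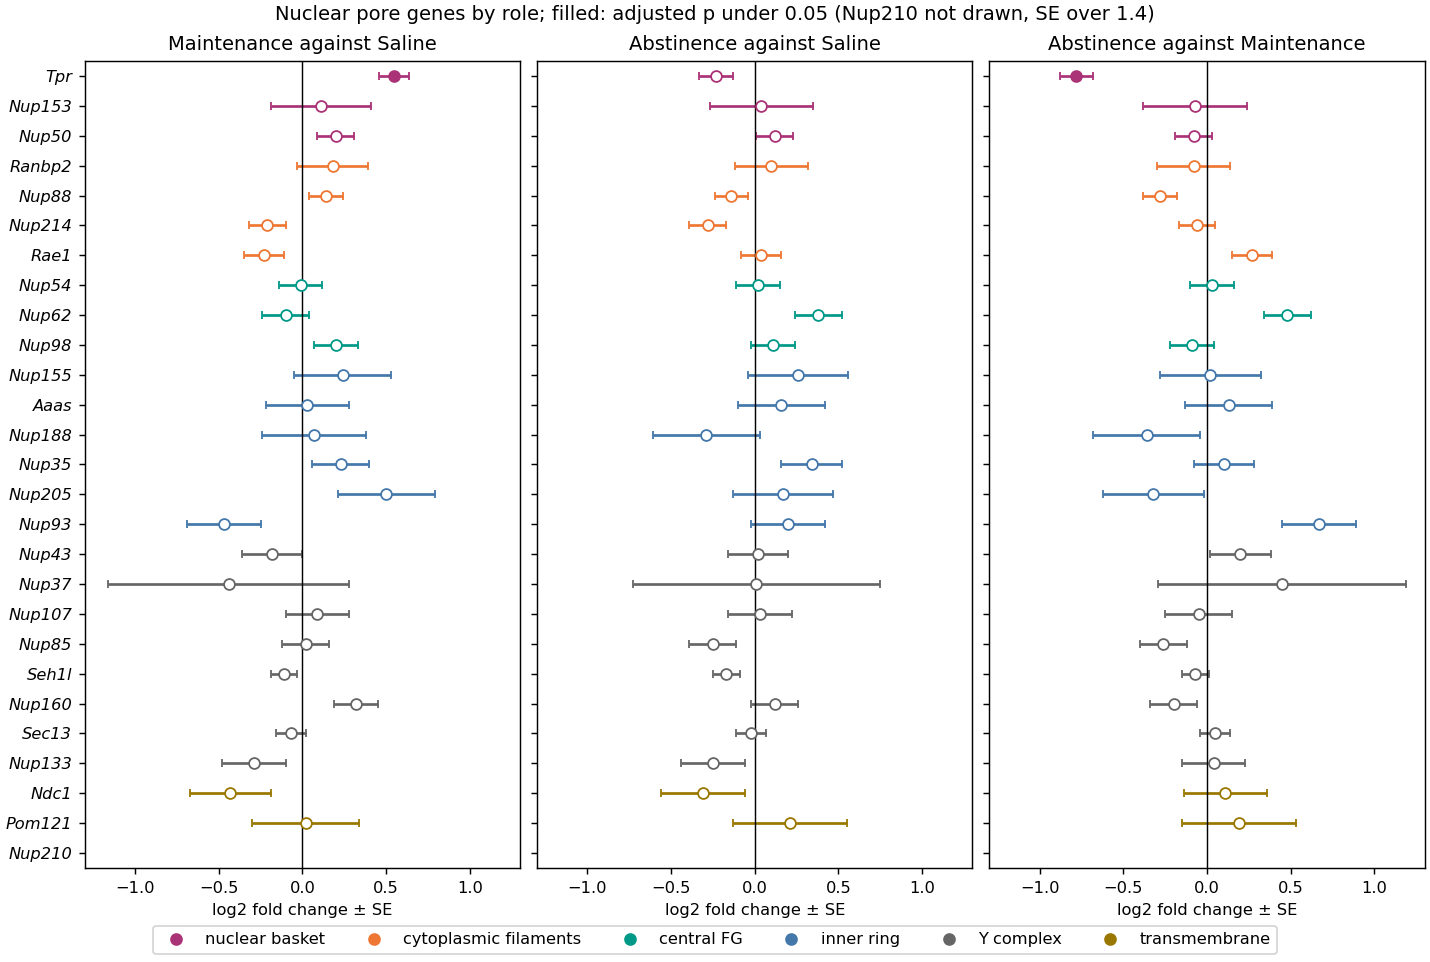
Log2 fold change ± SE of 26 members in each of the 3 comparisons, grouped and coloured by place in the pore, with filled points for an adjusted p under 0.05. Tpr is the single gene with filled points, at 0.55 in Maintenance against Saline and at -0.78 in Abstinence against Maintenance. Nup210 is left out because its SE was at least 1.48.

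The FG proteins of the central channel form the barrier that transport receptors cross. Nup62 (chromosome 7, 44816088 to 44831836), the core of the central channel complex, ranged from 17.3 to 26.2 CPM in Saline (median 18.9), from 15.1 to 25.8 CPM in Maintenance (median 18.2) and from 20.5 to 32.8 CPM in Abstinence (median 27.2). All 7 Abstinence libraries lay above the medians of both other groups, but the ranges overlapped. Its log2 fold change was 0.48 ± 0.14 from Maintenance to Abstinence (adjusted p = 0.098) and 0.38 ± 0.14 from Saline to Abstinence (adjusted p = 0.791). The first of these passed in 3 of 9 alternatives and in 1 of 23 runs without single libraries, and adjusted p otherwise reached 0.221. It passed with DESeq2 (0.47, adjusted p = 0.0301) and without Maintenance 6, 7 and 8 (0.61, adjusted p = 0.0276). It also passed in the 17 libraries of a second deposited table (0.61, adjusted p = 0.0245). The run without Maintenance 6 gave 0.55 (adjusted p = 0.049). All passing runs but DESeq2 left out Maintenance 6, the highest Maintenance library, so they are not independent of each other. DESeq2 called 509 genes in this comparison, against 153 by edgeR. Il4i1, a secreted amino acid oxidase, lies on the same strand and shares the first exon of Nup62, so that reads there could be counted to either gene. Il4i1 had median CPM of 9.64 in Saline, 5.4 in Maintenance and 9.15 in Abstinence, with log2 fold changes of 1.15 ± 0.56 from Maintenance to Abstinence (adjusted p = 0.451) and 0.20 ± 0.55 from Saline (adjusted p = 0.999). Atf5, a stress-response transcription factor on the opposite strand that overlaps the start of Nup62, had median CPM of 4.44, 2.86 and 3.52 in Saline, Maintenance and Abstinence, with log2 fold changes of 0.50 ± 0.34 from Maintenance to Abstinence (adjusted p = 0.683) and -0.01 ± 0.34 from Saline (adjusted p = 0.999). The part of either gene in the Nup62 values was not tested. Nup98, an FG protein whose gene also encodes a scaffold subunit, ranged from 66.6 to 93.9 CPM in Saline (median 70.1), from 50.8 to 114 CPM in Maintenance (median 82.4) and from 52.6 to 103 CPM in Abstinence (median 75.4). The 3 groups overlapped. Nup54, a partner of Nup62, had log2 fold changes of -0.01, 0.02 and 0.03 in the 3 comparisons.

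On the cytoplasmic side, Ranbp2 is the giant filament protein that carries a SUMO ligase activity and binds Ran. It ranged from 15.6 to 29.2 CPM in Saline (median 19.2), from 5.85 to 28.4 CPM in Maintenance (median 24.8) and from 13.3 to 24.9 CPM in Abstinence (median 22.5). The lowest value was Maintenance 6, and the groups overlapped. Nup214 and Nup88, which together hold the mRNA export machinery at the cytoplasmic face, had log2 fold changes of -0.28 ± 0.11 (adjusted p = 0.947) and -0.14 ± 0.10 (adjusted p = 0.999) from Saline to Abstinence. Rae1, an mRNA export factor that binds Nup98, differed by 0.27 ± 0.12 from Maintenance to Abstinence (adjusted p = 0.383).

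The inner ring joins the membrane to the central channel. Of its 6 genes here, with Aaas counted among them, 0 passed by edgeR in any comparison. In Abstinence 5 were higher than in Saline (median 0.19, from -0.29 for Nup188 to 0.34 for Nup35). Of all members 66.7% were higher in that comparison, and of all genes tested 51.3%. In Maintenance against Saline 5 of the 6 were higher as well. The SEs in Abstinence against Saline ran from 0.18 (Nup35) to 0.32 (Nup188), so the signs there carry little weight. Nup93, the linker that ties the scaffold to the channel proteins, ranged from 18.4 to 29.3 CPM in Saline (median 24.6), from 6.24 to 25.6 CPM in Maintenance (median 18.0) and from 18.3 to 38.9 CPM in Abstinence (median 28.3). Every Abstinence library was above the Maintenance median, and the lowest Maintenance value was again replicate 6. The log2 fold change from Maintenance to Abstinence was 0.67 ± 0.22 (adjusted p = 0.166), and it passed under none of the 9 alternatives (0.46 to 0.71). Nup205, a large scaffold subunit, ranged from 5.74 to 17.6 CPM in Saline (median 7.11), from 3.36 to 20.5 CPM in Maintenance (median 11.9) and from 5.28 to 14.5 CPM in Abstinence (median 8.29), and its groups overlapped. Nup188, its structural relative, ranged from 2.52 to 16.9 CPM in Saline (median 7.31), from 5.01 to 12.5 CPM in Maintenance (median 7.44) and from 3.93 to 8.91 CPM in Abstinence (median 5.58). Nup35, which binds the membrane, ranged from 12.1 to 23.6 CPM in Saline (median 19.8), from 12.8 to 32 CPM in Maintenance (median 23.8) and from 22.3 to 26.2 CPM in Abstinence (median 24.6). All 7 Abstinence libraries were above the Saline median for Nup35, with a log2 fold change of 0.34 ± 0.18 (adjusted p = 0.999). Nup155, a scaffold subunit at the membrane, and Aaas, the WD-repeat protein mutated in triple A syndrome, had Saline medians of 8.9 and 12.7 CPM and differed by 0.26 ± 0.30 and 0.16 ± 0.26 from Saline to Abstinence (adjusted p = 0.999 for each). In Maintenance against Saline, Nup205 was at 0.50 ± 0.29 and Nup93 at -0.47 ± 0.22, and neither passed.

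The Y complex is the outer scaffold and had 8 measured genes, of which 0 passed by edgeR in any comparison. Their log2 fold changes from Maintenance to Abstinence ran from -0.26 for Nup85 to 0.45 ± 0.74 for Nup37. The remaining scaffold subunits of this complex had Saline medians of 38.8 CPM for Nup160, 34.3 CPM for Nup85, 22.8 CPM for Nup133, 17.9 CPM for Nup107 and 10.6 CPM for Nup43. In Abstinence against Saline their log2 fold changes were 0.12 ± 0.14, -0.25 ± 0.14, -0.25 ± 0.19, 0.03 ± 0.19 and 0.02 ± 0.18 in that order (adjusted p = 0.999 for each). All 7 Abstinence libraries were below the Saline median for Nup133. In Maintenance against Saline, Nup160 was at 0.32 ± 0.13 and did not pass. Nup37 had 0 counts in Maintenance 6 and 7, where 3 counts would have been 0.0403 and 0.035 CPM, and 2.65 to 8.07 CPM in the other Maintenance libraries. Sec13, which is also a coat protein of vesicles leaving the endoplasmic reticulum, and Seh1l, also part of an amino acid sensing complex on lysosomes, spread least along with Tpr. The within-group SD of log2 CPM was 0.14 for Seh1l, 0.17 for Tpr and 0.18 for Sec13, against a median of 0.35 over members and 0.57 over all genes tested. Seh1l was at -0.17 ± 0.08 in Abstinence against Saline (adjusted p = 0.999).

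Among the membrane proteins, Ndc1, which anchors the pore, ranged from 12.5 to 19 CPM in Saline (median 15.4), from 3.51 to 19.4 CPM in Maintenance (median 12.5) and from 8.58 to 15.3 CPM in Abstinence (median 13.7). All 7 Abstinence libraries lay below the Saline median, with a log2 fold change of -0.31 ± 0.25 (adjusted p = 0.999). Pom121, another anchor, had log2 fold changes of 0.02, 0.21 and 0.19 in the 3 comparisons. Nup210, a pore membrane glycoprotein expressed in a cell-type dependent way, was close to the limit of detection: it had 0 counts in 3 of 8 Saline, 4 of 8 Maintenance and 2 of 7 Abstinence libraries. Its medians were 0.453, 0.196 and 1.08 CPM, and its highest values 2.05, 1.03 and 1.66 CPM, in the same order. Its SE of at least 1.48 leaves its differences undetermined at this depth.

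Levels were compared between genes per kilobase of exon (GENCODE vM21 exon unions, median CPM per kb in Saline). Sec13 stood highest at 49.3, followed by Seh1l at 20.7 and Rae1 at 16.8, and Nup210 lowest at 0.0432. Of the basket genes, Nup50 measured 8.19, Tpr 5.46 and Nup153 2.74 CPM per kb in Saline, and in Maintenance Tpr measured 7.86 CPM per kb. The 27 genes lie on 12 chromosomes. The spans of 8 members overlapped another tested gene, 10 genes in all, and 0 of the 10 were called by edgeR. Whether strand was used in counting is not known. Where exons overlap, reads could therefore have been counted to either gene.

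**Figure D3:**
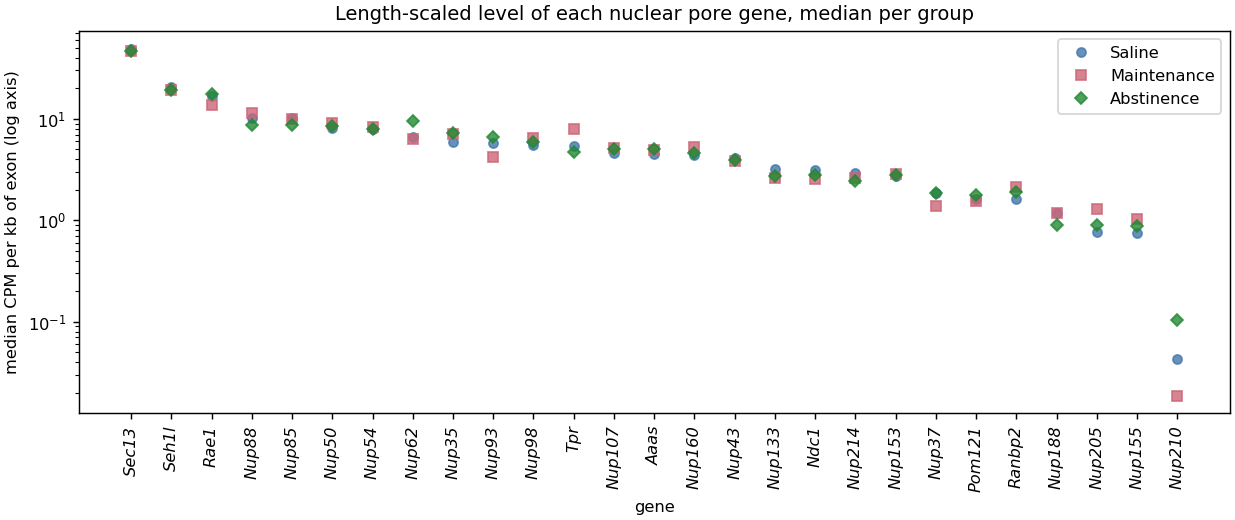
Median level of each of the 27 members per group, as CPM per kilobase of exon on a log axis, ordered by the Saline median. Sec13 is highest (49.3 in Saline) and Nup210 lowest (0.0432), and Tpr moves from 5.46 in Saline to 7.86 in Maintenance and 4.71 in Abstinence.

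Libraries differed in how many members they held at an extreme of their group. Maintenance 6 was the lowest of its group for 8 of 27 members and the highest for 5, beside 22.4% and 17% of all genes tested. Maintenance 7 was lowest for 8 and highest for 4 (18.3% and 16.8% of all genes). In Abstinence, replicate 5 was lowest for 8 and highest for 8 (22% and 19.2%). The lowest values in Maintenance 6 included Nup153 in the basket, Ranbp2 in the filaments, Nup93 in the inner ring, Nup37 in the Y complex (at 0 in Maintenance 7 too) and Pom121 in the membrane, while Nup50, Nup160, Nup62, Nup98 and Aaas were highest there.

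**Figure D4:**
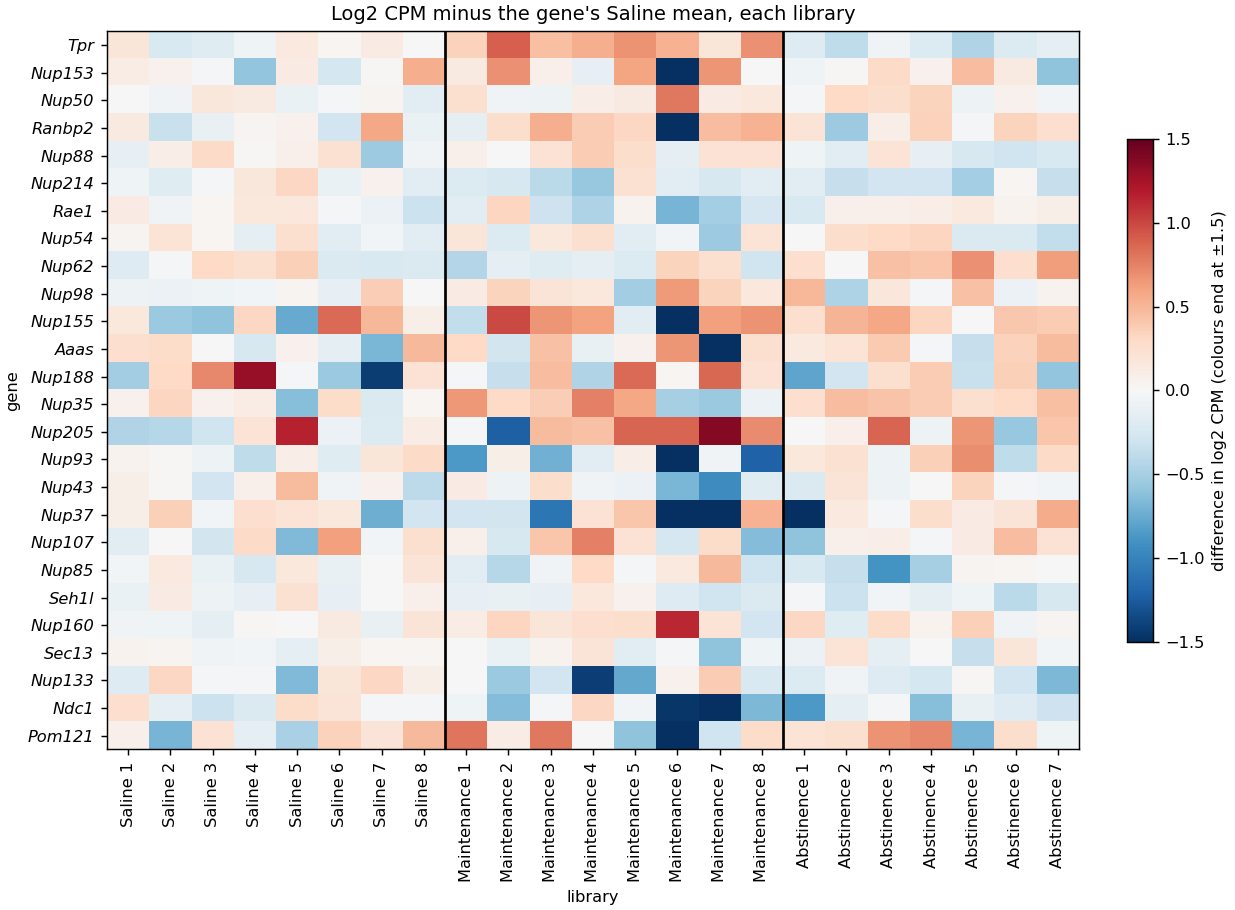
Log2 CPM of 26 members in each of the 23 libraries, minus the gene's mean over the Saline libraries. Red is higher and blue lower, colours end at ±1.5, and black lines part the groups. Tpr is red in all 8 Maintenance libraries, and most of the darkest blue cells lie in Maintenance 6 and 7.

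The genes that work with the pore were given by 6 lists holding 83 tested genes: importins, exportins, the Ran cycle, mRNA export, other pore-associated proteins, and the lamina and nuclear envelope. In Maintenance against Saline 0 of the 83 passed by edgeR, with 11 at an unadjusted p under 0.05. By DESeq2 3 passed there, Xpo1, Nxf1 and Thoc1, where DESeq2 called 406 genes in all, against 114 by edgeR. The share of genes called by DESeq2 was not computed, so the edgeR percentages below are no background for the DESeq2 counts. In Abstinence against Saline 0 passed by edgeR, with 8 at an unadjusted p under 0.05, and 0 by DESeq2. In Abstinence against Maintenance 1 passed by edgeR and 1 by DESeq2, with 9 at an unadjusted p under 0.05. Over all genes tested, an unadjusted p under 0.05 was reached by 11.8%, 4.39% and 11% in these comparisons. EdgeR called 0.707%, 0.0186% and 0.949% of them. The gene that passed in Abstinence against Maintenance was Nxf1, the main mRNA export receptor. Nxf1 ranged from 48.8 to 69.6 CPM in Saline (median 65.4), from 59.6 to 107 CPM in Maintenance (median 79.9) and from 50.3 to 66 CPM in Abstinence (median 63.2). The Maintenance median lay above every library of both other groups, though the ranges overlapped. It fell by 0.44 ± 0.10 on the log2 scale from Maintenance to Abstinence (adjusted p = 0.0334) and was at -0.08 ± 0.10 in Abstinence against Saline (adjusted p = 0.999). The call was lost with upper-quartile factors (adjusted p = 0.0536), with only the compared groups in the fit (0.0886), and without Maintenance 4 (0.0579), Maintenance 6 (0.0505), Abstinence 2 (0.081), Abstinence 3 (0.0797) or Abstinence 7 (0.0754). The list medians from Maintenance to Abstinence were 0 for 17 importins, 0.01 for 7 exportins, 0.03 for 7 Ran cycle genes, -0.03 for 22 mRNA export genes, -0.04 for 16 pore-associated genes and 0.04 for 15 envelope genes. Ahctf1, the chromatin-binding protein that seeds pore assembly and no member by name, had medians of 13.5, 15.8 and 13.1 CPM in Saline, Maintenance and Abstinence. Nupl1 had medians of 26.6, 27.5 and 32.5 CPM and Nupl2 of 9.78, 7.13 and 8.37 CPM in the same order, and neither passed. Of 16 genes of cell division, in which the pore is taken apart and rebuilt, 0 passed by edgeR and 0 by DESeq2 in any comparison, and 0 had an unadjusted p under 0.05. Their median log2 fold change was 0.31 in Maintenance against Saline (12 of 16 higher) and 0.49 in Abstinence against Saline (15 of 16). From Maintenance to Abstinence it was 0.19 (12 of 16). Their SE ran from 0.42 (Cenpa) to 1.46 (Cenpe), so the lack of calls does not show that they were unchanged.

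**Figure D5:**
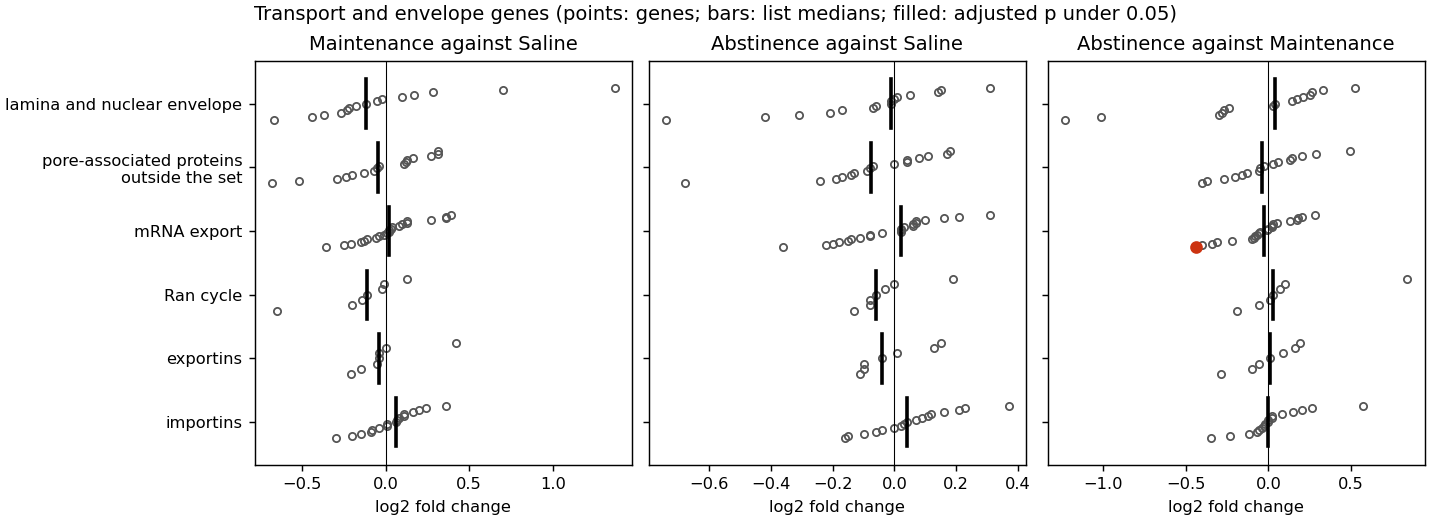
Log2 fold changes of the genes in 6 transport and envelope lists, in each of the 3 comparisons. Points are genes, vertical bars are list medians and filled points have an adjusted p under 0.05. The single filled point is Nxf1, at -0.44 in Abstinence against Maintenance.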

How the data were processed

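RNA from 23 libraries of striatal microglia was made into sequencing libraries with a kit meant for very small inputs. The submitters' processing notes list STAR 2.7.10a, Trim Galore 0.6.7, StringTie 2.1.5, DESeq2 1.38.3, cutadapt 1.18 and the build mm10 (GRCm38), and how reads were counted or whether strand was used is not given in the sources used here. The deposited tables hold whole-number counts per gene. The second, called normalized, held the same values for 17 libraries (0 of 611592 differed) and served to choose 1 alternative.

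Genes were kept with filterByExpr (minimum count 10, minimum total 15), leaving 16121. All libraries entered 1 edgeR 4.0.16 quasi-likelihood fit by group (TMM factors, robust), with Benjamini-Hochberg adjustment over all genes and a threshold of 0.05. The SE is the log2 fold change divided by the square root of F. Log2 CPM used a prior count of 2. The test was tested on simulated data. As alternatives served upper-quartile or RLE factors, no filter on low counts, DESeq2 1.42.0, a replicate block, only the compared groups, leaving out Maintenance 6, 7 and 8 or each library, the second table's libraries, and marker covariates.

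The members and lists were chosen with earlier results of these data known. Members given with values by group were those called, the 2 most changed per direction and comparison whose mean log2 CPM reached 2, and Tpr, Nup153, Nup50, Nup98, Nup62, Ranbp2 and Nup210. Limits at 0 counts (3 counts) cover counting error only. Positions (gene spans over all transcripts) and promoters (before 1 transcript start) are from RefSeq GRCm38.p6. The windows of Tpr and several other members, Nup54, Nup214, Nup107 and Nup37 among them, therefore end inside the gene span. Those of Pom121 and Nup210 lie wholly inside it.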

Additional observations from a re-analysis of the deposited data

Results flagged for a closer look

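In 12 of 84 groups (27 members and Nxf1 in 3 groups each), 1 library stood far from the others of its group by Dixon's test. For independent and normally spread values, chance alone would flag about 1 in 20 groups. These are CPM values in which the same libraries recur across genes, and no share over all genes was computed. The count therefore does not show an excess for the pore genes.

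Maintenance 6 accounted for 4 of the 12. It was lowest for Nup153 (1.83 CPM, next 17.1) and Ranbp2 (5.85 CPM, next 17.7), and highest for Nup50 (69.9 CPM, next 47.8) and Nup160 (86 CPM, next 49.2). Nup214 was highest in Maintenance 5 (34.1 CPM, next 26). In Saline, replicate 5 was highest for Nup43 (14.4 CPM, next 11) and Nup205 (17.6 CPM, next 9.07), and replicate 7 for Ranbp2 (29.2 CPM, next 21.6) and Nup98 (93.9 CPM, next 74.9). In Abstinence, replicate 1 was lowest for Nup37 (1.29 CPM, next 5.57) and Rae1 (36.4 CPM, next 44.4), and replicate 3 was highest for Nup88 (91.7 CPM, next 76.3). No group of Tpr or Nxf1 held such a library.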

How the results depend on the processing

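The median log2 fold change of the members moved by less than the spread between libraries under every alternative run. The count of members called in Maintenance against Saline was 0 with marker covariates. In Abstinence against Maintenance it was 2 with DESeq2, without Maintenance 6, 7 and 8 and in the second table's libraries, and 1 to 2 without single libraries (2 without Maintenance 6), Nup62 being the second gene. The cause was not tested.

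Counts over all genes moved more. In Maintenance against Saline, 114 genes became 406 with DESeq2, 69 with the replicate block, 57 with only the compared groups, 176 in the second table's libraries and 32 with covariates. They ranged from 42 (without Saline 3) to 197 (without Saline 8), with 62, 60 and 70 without Saline 1, 2 and 4. In Abstinence against Saline, 3 became 91 with DESeq2, 5 with only the compared groups, 15 without Maintenance 6, 7 and 8, 56 in the second table's libraries and 0 with covariates, and 1 to 15 without single libraries (15 without Saline 8, 7 without Abstinence 5, 6 without Saline 7 or Maintenance 6, and 1 without Saline 1, 2, 3, 5 or 6 or Abstinence 1, 2 or 6). With upper-quartile factors its split was 1 higher and 1 lower, against 2 and 1. In Abstinence against Maintenance, 153 became 509 with DESeq2, 64 with only the compared groups and 238 in the second table's libraries, and 89 (without Abstinence 3) to 265 (without Maintenance 8), with 92 and 100 without Abstinence 4 and 7.

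Replicate numbers did not pair the libraries: deviations of same-numbered libraries correlated from -0.116 to 0.092 over 22 pairs, and 3 correlated best with their own number. With the replicate block Tpr stayed at -0.77 ± 0.11 from Maintenance to Abstinence (adjusted p = 0.00184).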
